A study of Mus musculus with 24 samples.

Results

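Lipid droplet proteins were followed across the bulk RNA sequencing of mouse quadriceps muscle. The group holds 8 genes, the 5 perilipins (Plin1, Plin2, Plin3, Plin4 and Plin5), the CIDE family members Cidea and Cidec, and Hilpda. They were picked by symbol, with earlier results of these data known. All 8 were among the 14159 genes with a symbol in the expression table. The aim was to set the droplet coats known from fat cells, from muscle and from macrophages against each other after injury and material implantation.

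The samples came from female C57BL/6J (B6) or MRL/MpJ (MRL) mice that were 6 to 8 weeks old at surgery, with 3 libraries in each of 8 groups. MRL is an autoimmune-prone strain, and no transgene or engineered allele is named for either strain. In each strain one group was uninjured, and 3 groups had volumetric muscle loss (VML), the surgical removal of a piece of the quadriceps, and then received saline, decellularized extracellular matrix (ECM, from porcine small intestine) or polyethylene powder (PE). Injured muscle was taken at day 21, and the labels give no day for the uninjured mice. Each library was made from a whole quadriceps, so fewer cells of a type and less RNA per cell cannot be told apart in any value below. Levels are given as CPM, the read count of a gene scaled to the size of its library, or as log2 CPM. A gene was called changed at an adjusted p below 0.05 in limma, with adjustment over all 14159 genes within each comparison. An exact permutation test of 3 against 3 libraries cannot go below 0.10 and was therefore not used for single genes. Whether the libraries of 2 groups overlap is given below as a description only. The share of all genes without overlap was not counted, so a lack of overlap is not read as support for a change.

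A lipid droplet is a store of triacylglycerol and sterol esters enclosed by a single layer of phospholipid, and the proteins on its surface set how fast fat enters and leaves it. Perilipins coat that surface and control the access of lipases, while CIDE proteins sit where droplets touch and let one grow at the expense of another. Plin1 and Cidec are textbook coats of the fat cell, Cidea is strongest in brown fat, Plin5 is known from tissues that burn fat such as heart and red muscle, and Plin2 is the general coat that lipid-laden macrophages also use. Hilpda is a small protein induced by low oxygen that inhibits the lipase encoded by Pnpla2.

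The genes differ widely in size. In the GRCm39 build with GENCODE vM39 annotation the representative protein ran from 64 residues for Hilpda to 1601 for Plin4. Plin4 (chr17:56406617-56416931), Plin5 (chr17:56418446-56424610) and Plin3 (chr17:56584218-56599873) lie on the minus strand of the same chromosome, with 1514 bases between Plin4 and Plin5 and 159607 between Plin5 and Plin3. Plin1 lies at chr7:79369966-79382718, Plin2 at chr4:86565912-86588459, Cidec at chr6:113400691-113412721 and Hilpda at chr6:29272409-29276301. Plin4 overlaps Hdgfl2 on the other strand, and Cidea, Cidec and Hilpda each overlap a predicted or little-described gene on the other strand. The quantification commands of the study set no strand option, so reads from such overlaps cannot be told apart by strand.

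The promoters of Plin2 and Plin5 are shown because these 2 coats moved in opposite directions under PE in B6 muscle. The windows hold the 250 bases before the start of the representative transcript on the gene's own (minus) strand in GRCm39. Plin2 is printed whole, at chr4:86588460-86588709. For Plin5 the 67 bases nearest the start lie inside another transcript of the gene and were left out, which leaves 183 bases at chr17:56424611-56424793. The capitals mark AGGTCA or its reverse complement, the half-site of nuclear receptors such as the PPARs.
Plin2: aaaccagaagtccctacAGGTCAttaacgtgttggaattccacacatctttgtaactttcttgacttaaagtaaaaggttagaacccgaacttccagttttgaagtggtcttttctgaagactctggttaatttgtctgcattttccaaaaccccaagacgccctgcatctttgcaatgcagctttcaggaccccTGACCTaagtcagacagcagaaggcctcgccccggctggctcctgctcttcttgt
Plin5: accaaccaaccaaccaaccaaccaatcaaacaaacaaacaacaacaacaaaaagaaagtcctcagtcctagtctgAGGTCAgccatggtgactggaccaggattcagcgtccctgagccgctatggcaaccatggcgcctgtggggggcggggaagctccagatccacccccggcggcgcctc
The half-site was present 2 times in the Plin2 window, starting 233 and 55 bases before the start site, and 1 time in the Plin5 window, 175 bases before it. No other member held it, and 13.1% of 21770 protein-coding promoter windows of this length held it on either strand. The full direct repeat, 2 copies of AGGTCA with 1 base of any kind between them, was in none of the 8 windows and in 0.0367% of all windows. The hypoxia core ACGTG was found in the Plin2 window alone among the members, and 17.0% of all windows held it. A match of letters is a description and not a bound site.

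Libraries of one group were not equally alike. In MRL PE, replicate 2 correlated at r = 0.812 and 0.827 across genes with the other two libraries, while the pairs of all other groups lay between 0.904 and 0.976. Ckm, the creatine kinase of muscle, was above 1000 CPM in every library and lowest, at 1030 CPM, in MRL PE replicate 2. Cd68, a macrophage lysosomal protein, was 458 CPM in that library and 8.3 and 10.1 CPM in the other MRL PE libraries. Summed over 8 genes of lipid-associated macrophages, MRL PE replicate 2 had 16700 CPM against 1110 and 1130 CPM. The strain label was checked on 160 genes that separated the 9 MRL from the 9 B6 libraries without PE, with a mean difference of at least 2 on the log2 scale. MRL PE replicate 2 lay nearer to MRL for 128 of them, against 155 and 157 for its group mates and 3 to 10 for the B6 PE libraries. Its treatment label could not be checked in this way, and its departure bears on every MRL PE value and on every strain difference under PE. The member and list results on MRL PE are therefore also given without this library, apart from group levels and the genes most alike to each member, and why it stood apart was not tested.

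The fat-cell coats varied most between libraries of the same group. Plin1, which guards the droplet of adipocytes against lipases, ranged from 0.383 to 221 CPM over the 24 libraries, a 579-fold span, with a pooled within-group SD of 2.31 on the log2 scale. In uninjured B6 muscle it was 21.1, 164 and 42.5 CPM, and in B6 PE it was 1.26, 3.13 and 2.32 CPM, so these groups did not overlap. In MRL PE it was 221, 9.07 and 132 CPM, with replicate 2 as the low library. Of the saline and ECM groups B6 ECM spread widest, at 0.53, 0.383 and 63.1 CPM. The others were narrower, with 21.9, 12.9 and 0.739 CPM in B6 saline, 38.3, 10.6 and 9.5 CPM in MRL saline and 46.4, 7.01 and 2.4 CPM in MRL ECM. Uninjured MRL muscle had 3.36, 91.2 and 21.6 CPM. A single library, B6 ECM replicate 3, thus stood far above its group mates.

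Cidec, which fuses droplets in white fat, followed the same libraries. It was 75.5, 388 and 171 CPM in uninjured B6 muscle and 6.6, 26.5 and 18.5 CPM in B6 PE. MRL PE had 581, 29.9 and 334 CPM, which did not overlap B6 PE. The one high B6 ECM library was again replicate 3, at 173 CPM against 4.83 and 9.04 CPM.

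Cidea, the CIDE protein of brown and beige fat, had the widest range, from 0.416 to 335 CPM. It was 21.2, 335 and 22.1 CPM in uninjured B6 muscle and below 1 CPM in all 3 B6 PE libraries, at 0.544, 0.726 and 0.416 CPM. B6 saline also lay low, at 1.1, 1.0 and 2.38 CPM. MRL PE held 97.0, 4.16 and 154 CPM, and even its lowest library was above every B6 PE library. Ucp1, the uncoupling protein that defines brown fat, was 14.4 to 283 CPM in uninjured B6 muscle and at most 0.255 CPM in B6 PE, and 2.14 to 109 CPM in MRL PE.

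Plin4, an adipocyte perilipin that skeletal muscle also makes, was less variable, with a pooled within-group SD of 0.78. It was 132, 292 and 311 CPM in uninjured B6 muscle and 34.0, 32.7 and 74.8 CPM in B6 PE, without overlap. MRL PE had 474, 49.8 and 384 CPM, so that replicate 2 fell inside the B6 PE range and the other two lay above all other libraries of the study. The 5 groups other than uninjured B6 and the PE groups stayed between 97.3 and 268 CPM.

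Plin5, which ties droplets to mitochondria in tissues that oxidize fat, was 17.9, 42.2 and 53.5 CPM in uninjured B6 muscle. It was 6.41, 12.4 and 5.88 CPM in B6 saline and 7.59, 7.57 and 6.52 CPM in B6 ECM, all below the uninjured libraries. B6 PE was lower again, at 1.77, 1.71 and 4.29 CPM, with no overlap with any other B6 group. In MRL muscle the groups overlapped throughout, with 27.3, 21.2 and 10.9 CPM uninjured, 7.72, 48.7 and 18.8 CPM after saline, 12.7, 21.1 and 2.93 CPM with ECM and 36.7, 4.31 and 34.0 CPM with PE.

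Plin2 had the opposite order. It was 199, 512 and 202 CPM in B6 PE and 179, 567 and 171 CPM in MRL PE, whereas B6 saline had 38.3, 70.1 and 44.1 CPM and MRL saline 63.5, 56.1 and 56.1 CPM. Uninjured muscle had 76.7, 181 and 65.6 CPM in B6 and 51.7, 122 and 58.2 CPM in MRL, and ECM had 62.5, 59.5 and 88.1 CPM in B6 and 85.5, 56.5 and 53.1 CPM in MRL. The PE groups were highest in both strains, and replicate 2 was the top library in each. Ordered by mean log2 CPM, B6 PE (8.10 ± 0.78, SD, n = 3) and MRL PE (8.02 ± 0.98) came first, with no detected difference between them, and the other 6 groups followed between 6.60 and 5.62 with no called difference among those compared.

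Plin3 and Hilpda spanned narrower ranges. Plin3, a perilipin that moves from the cytosol onto young droplets, lay between 19.7 and 88.5 CPM, a 4.48-fold span, with its highest libraries in MRL PE (88.5 CPM) and B6 PE (77.4 CPM), in both cases replicate 2. Hilpda was 6.85, 11.2 and 6.07 CPM in B6 PE against 2.58, 2.57 and 3.07 CPM in B6 saline and 3.11, 3.05 and 3.23 CPM in uninjured B6 muscle. MRL PE had 2.03, 14.8 and 1.87 CPM, so 1 of its 3 libraries was the highest of all 24 and the other two were among the lowest.

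**Figure D1:**
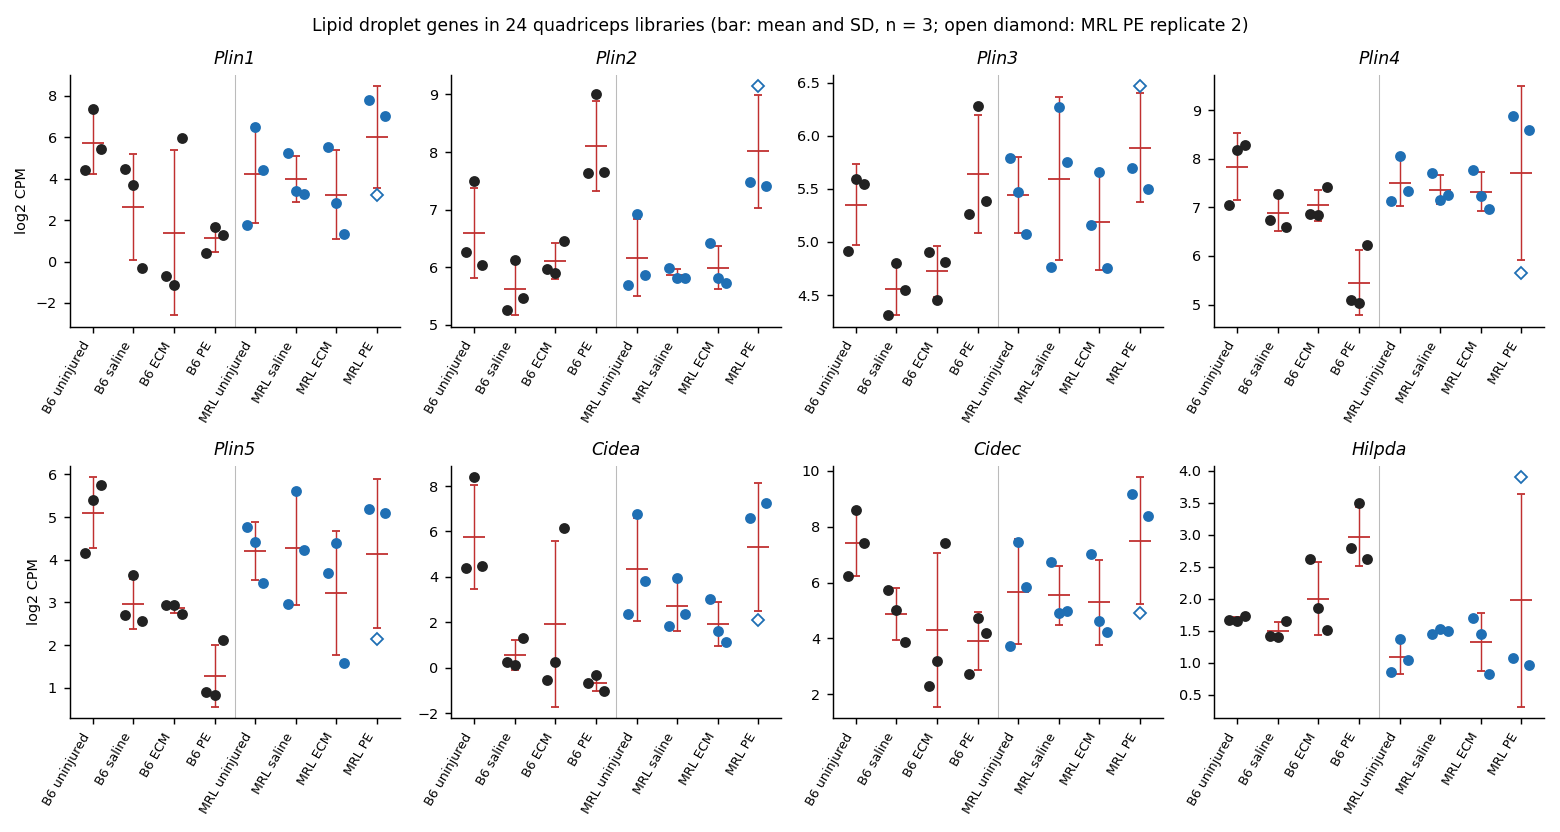
Level of each lipid droplet gene in log2 CPM (vertical axis) in the 8 groups (horizontal axis), one point per library, black for B6 and blue for MRL, with the mean and SD in red (n = 3) and MRL PE replicate 2 as an open diamond. Plin1, Plin4, Plin5, Cidea and Cidec sit lowest or near lowest in B6 PE, where Plin2 and Hilpda sit higher than in the other B6 groups, and the open diamond lies near the B6 PE points for Plin2, Plin4 and Plin5.

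The make-up of the perilipin coat was compared per transcript length. CPM was divided by the length of the representative transcript (2.05 kb for Plin2, 7.451 kb for Plin4), and each perilipin was expressed as a percent of the 5 together. Plin2 was the leading perilipin message in every library except uninjured B6 replicate 3, where Plin4 led. It made up 86.3%, 90.6% and 80.9% in the B6 PE libraries, against 48.1%, 41.4% and 25.9% in uninjured B6 muscle and 38.7%, 47.6% and 49.6% in B6 saline. In B6 PE the shares of Plin1 (0.375% to 0.634%) and Plin5 (0.276% to 1.56%) were small, and Plin4 was 1.59% to 8.23%, against 18.4% to 33.8% in uninjured B6 muscle.

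MRL PE did not share one make-up. Plin2 took 34.4% and 40.5% in replicates 1 and 3, with Plin1 at 29.0% and 21.5% and Plin4 at 25.0% and 25.1%. In replicate 2 Plin2 took 89.0%, Plin1 0.974% and Plin4 2.15%, all inside or close to the B6 PE ranges. Plin3 kept a share between 5.17% and 21.5% in every library. These shares are parts of a whole, so a larger Plin2 share lowers the others by construction.

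**Figure D2:**
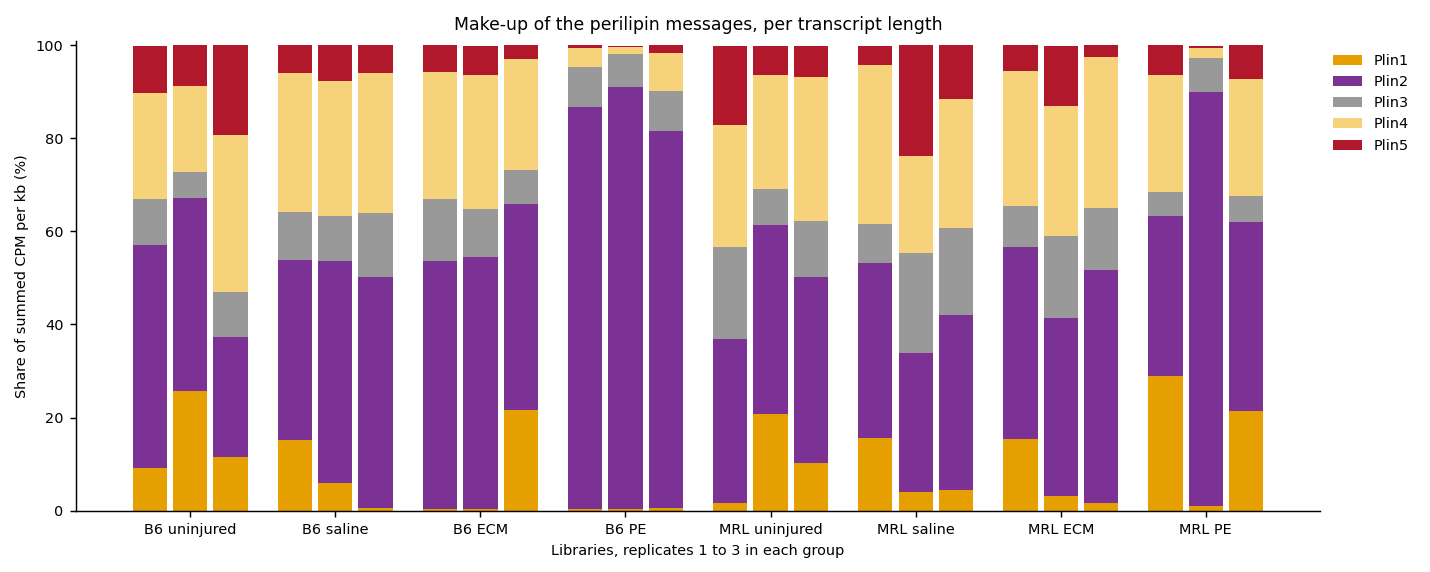
Stacked bars of the share (percent, vertical axis) of each of the 5 perilipins in their summed CPM per kilobase of transcript, one bar per library in replicate order within the 8 groups. Plin2 (purple) fills 80.9% to 90.6% of the B6 PE bars and 89.0% of the middle MRL PE bar, and 34.4% and 40.5% of the other MRL PE bars.

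In injured B6 muscle with PE, Plin4, Plin5, Cidea and Cidec were lower than in uninjured muscle and Plin2 was higher. Against uninjured B6 muscle, 5 of 8 members were called, 4 lower and 1 higher. Of all genes, 24.8% were called in this comparison, 10.0% lower and 14.7% higher. The median log2 fold change of the 8 members was -2.96, beside 0.02 for all genes. The changes were -6.43 ± 1.55 (SE) for Cidea (adjusted p = 0.00986), -3.82 ± 0.80 for Plin5 (adjusted p = 0.00478), -2.39 ± 0.59 for Plin4 (adjusted p = 0.0105) and -3.52 ± 1.27 for Cidec (adjusted p = 0.0486). In linear terms Cidea was 86.0-fold lower and Plin5 14.1-fold lower. Plin2 rose by 1.5 ± 0.47 (adjusted p = 0.0293), or 2.83-fold.

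Plin1 (-4.60 ± 1.73, adjusted p = 0.0566), Hilpda (1.29 ± 0.52, adjusted p = 0.0748) and Plin3 (0.29 ± 0.36, adjusted p = 0.557) did not pass the test. The Plin1 and Hilpda libraries of these groups did not overlap. Cidea and Plin5 were called with any 1 of the 6 libraries left out. Cidec was lost in each of these 6 fits (adjusted p = 0.0622 to 0.142). Without B6 PE replicate 2, Plin2 (1.05, adjusted p = 0.177) and Plin4 (-2.18, adjusted p = 0.0676) were lost, and Plin2 was also lost without uninjured B6 replicate 1 (adjusted p = 0.0964) or 3 (adjusted p = 0.115). Over these 6 fits the number of all genes called ran from 533 (without B6 PE replicate 2) to 3435, against 3508 with all libraries.

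Sums of cell markers also differed in this comparison, where 10.0% of all genes were called lower and 14.7% higher. Summed over 8 white adipocyte genes, B6 PE libraries had 1300 to 2930 CPM and uninjured B6 libraries 3450 to 10900 CPM, and 1 of the 8 genes was called lower. Car3, which muscle also makes, carried 64.4% to 91.2% of these sums. Without it the other 7 genes summed to 188 to 388 CPM in B6 PE and to 916 to 3870 CPM in uninjured B6 muscle. Over 5 brown adipocyte genes (Elovl3 was not in the table) the sums were 72.6 to 124 CPM against 234 to 525 CPM, with 3 of 5 called lower. Of these sums Cox8b alone was 32.7 to 77.6 CPM in B6 PE and 142 to 172 CPM in uninjured B6 muscle. Over 12 muscle fibre genes they were 59900 to 129000 CPM against 150000 to 200000 CPM, with 1 of 12 called lower. The calls in the white adipocyte and muscle fibre lists lay near the 10.0% of all genes called lower. Macrophage genes rose, with 6 of 7 called higher and sums of 459 to 1430 CPM against 78.5 to 107 CPM, and 7 of 8 lipid-associated macrophage genes were called higher, with sums of 5410 to 15200 CPM against 626 to 899 CPM. No gene of these lists was at 0 in all libraries of either group. Their part in the changes of the droplet genes was not tested.

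Set against the saline-treated injury, PE raised Plin2 alone among the members. Plin2 was 2.48 ± 0.47 higher on the log2 scale (adjusted p = 0.0172), or 5.57-fold, and 5.97% of all genes were called (5.37% higher, 0.6% lower). Plin3 (1.09 ± 0.36, adjusted p = 0.0737) and Hilpda (1.48 ± 0.52, adjusted p = 0.091) lay above saline without overlap but did not pass. Plin4 (-1.43 ± 0.59, adjusted p = 0.139), Plin5 (-1.69 ± 0.80, adjusted p = 0.192) and Cidea (-1.22 ± 1.55, adjusted p = 0.656) lay below it without overlap and did not pass either. The Plin2 call was lost without B6 PE replicate 1 (adjusted p = 0.0543), B6 PE replicate 2 (adjusted p = 0.172) or B6 saline replicate 3 (adjusted p = 0.0543). Without B6 PE replicate 2, only 2 of all genes were called, against 845 with all libraries. With all libraries, all 8 lipid-associated macrophage genes and 4 of 7 macrophage genes were called higher in the same comparison.

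Against ECM in B6 muscle no member was called by limma, where 0.226% of all genes were. An unadjusted p below 0.05 was found for 3 members and for 2911 of all 14159 genes. The 3 members were Plin2 (1.99 ± 0.47, adjusted p = 0.0755), Plin3 (0.92 ± 0.36, adjusted p = 0.168) and Plin4 (-1.59 ± 0.59, adjusted p = 0.152), each without overlap between the groups.

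In MRL muscle Plin2 was the one member called with PE. Plin2 was 1.85 ± 0.47 higher than in uninjured muscle (adjusted p = 0.0448), or 3.61-fold, in a comparison where 9.73% of all genes were called (5.95% higher, 3.78% lower). It was 2.14 ± 0.47 above saline (adjusted p = 0.085) and 2.02 ± 0.47 above ECM (adjusted p = 0.0558), without overlap in either case. In those comparisons no gene at all was called by limma (0.0% in both), although 3298 and 4022 genes had an unadjusted p below 0.05. Without MRL PE replicate 2, Plin2 was 1.29 above uninjured muscle (adjusted p = 0.194), 1.58 above saline (adjusted p = 0.178) and 1.46 above ECM (adjusted p = 0.126), and against uninjured muscle 1 gene of all was called. The call was also lost without uninjured MRL replicate 1 (adjusted p = 0.109) or 3 (adjusted p = 0.188).

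The other 7 members were not called between MRL PE and uninjured MRL muscle. Their log2 fold changes ran from -0.07 for Plin5 and 0.19 for Plin4 to 1.82 for Cidec. Plin4 and Plin5 changed sign with the libraries, from -0.40 to 1.23 and from -0.60 to 0.93 when 1 was left out. Among macrophage genes 5 of 7 were called higher, and among lipid-associated macrophage genes 2 of 8. With replicate 2 of MRL PE left out none of either list was called, and the medians were 1.22 and 0.04 on the log2 scale. White adipocyte genes summed to 10500, 1130 and 7310 CPM in MRL PE replicates 1 to 3 and to 2250 to 6950 CPM in uninjured MRL muscle, with none of 8 called by limma and 1 at an unadjusted p below 0.05. In that comparison 5116 of all 14159 genes had an unadjusted p below 0.05.

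**Figure D3:**
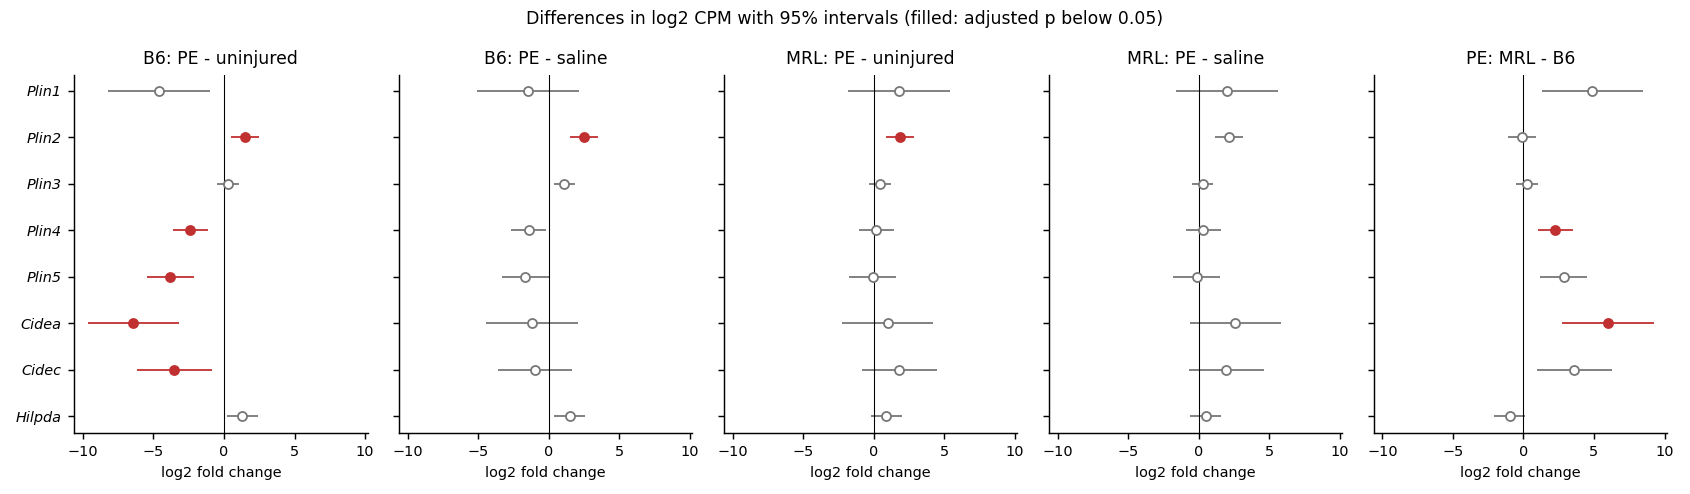
Difference in log2 CPM of each lipid droplet gene (points, with 95% intervals from limma) in 5 comparisons that involve PE, the group named first minus the second, with filled red points where the adjusted p was below 0.05. Plin2 lies to the right of 0 in all 4 comparisons of PE with uninjured or saline muscle, and Plin1, Plin4, Plin5, Cidea and Cidec lie to the left in B6 against uninjured and to the right in MRL against B6.

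The strains were compared directly under PE. Cidea was 5.99 ± 1.55 higher on the log2 scale in MRL than in B6 (adjusted p = 0.0372), or 63.4-fold, and Plin4 was 2.26 ± 0.59 higher (adjusted p = 0.0386), or 4.78-fold. These were the 2 members called, while 3.35% of all genes were called, 1.6% higher and 1.74% lower in MRL. Plin5 (2.86 ± 0.80, adjusted p = 0.0552), Plin1 (4.89 ± 1.73, adjusted p = 0.125) and Cidec (3.59 ± 1.27, adjusted p = 0.124) were above B6 in every MRL library but did not pass. For Plin5 this rested on 4.31 CPM in MRL PE replicate 2 against 4.29 CPM in B6 PE replicate 3. For Cidec the closest values were 29.9 CPM in MRL PE replicate 2 and 26.5 CPM in B6 PE replicate 2. A block on the replicate number treats same-numbered libraries as pairs, which neither the labels nor the paper states. With this block in limma the adjusted p was 0.0512 for Cidea and 0.0527 for Plin4, and neither was called.

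No strain difference was detected for Plin2 and Plin3 under PE, with wide intervals. The difference was -0.08 ± 0.47 for Plin2 (95% interval -1.07 to 0.90, adjusted p = 0.952) and 0.25 ± 0.36 for Plin3 (-0.50 to 1.00, adjusted p = 0.76). The difference of Hilpda was -0.99 ± 0.52 (adjusted p = 0.312).

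MRL PE replicate 2 decided how many members were called between the strains. Without it 6 members were called in place of 2, in a comparison where 24.6% of all genes then were. Cidea was then 7.60 higher (adjusted p = 0.00164), Plin1 6.30 (adjusted p = 0.0167), Cidec 4.89 (adjusted p = 0.0091), Plin5 3.86 (adjusted p = 0.000978) and Plin4 3.29 (adjusted p = 1.08e-05) in MRL, and Hilpda was -1.95 (adjusted p = 0.000262). Without any other single PE library, Cidea was not called (adjusted p = 0.0908 to 0.2), and Plin4 was called only without B6 PE replicate 3. White adipocyte sums were 1300 to 2930 CPM in B6 PE, and 1 of 8 of those genes was called higher in MRL, while 1 of 8 lipid-associated macrophage genes and 1 of 7 macrophage genes were called lower. Without MRL PE replicate 2, 7 of 8 white adipocyte genes were called higher in MRL, and 8 of 8 lipid-associated macrophage genes and 6 of 7 macrophage genes lower. Their part in the strain difference was not tested.

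Whether PE acted differently in the strains, relative to saline, was tested with an interaction term. No gene of the table was called by limma (0.0%), and 614 had an unadjusted p below 0.05. Among the members Plin4 alone had one, with an interaction of 1.77 ± 0.83 (adjusted p = 0.988), and that of Plin2 was -0.34 ± 0.67. Without MRL PE replicate 2, Plin4 (2.80, adjusted p = 0.00402) and Hilpda (-1.95, adjusted p = 0.0119) were called, and 4.41% of all genes were.

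Saline and ECM produced no called change in any droplet gene in the fit used here. In the 9 comparisons of 2 groups without PE, 0 of 72 tests of a member passed in limma, and 8 had an unadjusted p below 0.05. Of these, 4 lay in B6 ECM against uninjured, where 2372 of all 14159 genes had one. Another 3 lay in B6 saline against uninjured (1751 genes) and 1 between strains after saline (1880 genes). The share of all genes called was 0.0% for saline against uninjured in B6 and in MRL, 0.424% for ECM against uninjured in B6 and 0.0141% in MRL, and 0.0283% for ECM against saline in B6 and 0.00706% in MRL. Between strains it was 2.6% in uninjured muscle, 2.51% after saline and 2.66% with ECM. The interactions of strain with saline injury and with ECM also called no gene (0.0% each), with 570 and 320 genes at an unadjusted p below 0.05 and none of them a member.

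In B6 muscle after saline all 8 members were lower than in uninjured muscle, none of them called. Plin1 was -3.10 (adjusted p = 0.464) with overlap and Cidec -2.55 (adjusted p = 0.419) without. Cidea was -5.21 ± 1.55 (adjusted p = 0.288), Plin5 -2.13 ± 0.80 (adjusted p = 0.32) and Plin3 -0.80 ± 0.36 (adjusted p = 0.385), each without overlap. The paper, in its own analysis, reports Plin5 as lower in injured B6 muscle at an adjusted p below 0.05. With library weights in limma, Plin5 (-2.30, adjusted p = 0.0282) and Cidea (-4.62, adjusted p = 0.0271) were called, where 7.6% of all genes were. With ECM Plin5 was -2.24 ± 0.80 (adjusted p = 0.185), also without overlap, and Plin1, Cidea and Cidec were -4.34, -3.82 and -3.11 with B6 ECM replicate 3 overlapping the uninjured range. Without that library the changes were -6.64, -5.92 and -4.68. Between the strains after saline, Plin3 was 1.04 ± 0.36 higher in MRL (adjusted p = 0.175) and was called without MRL saline replicate 1 (1.46, adjusted p = 0.0268).

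The members fell into distinct patterns over the 24 libraries. The following correlations are descriptions, since the libraries share 8 groups and the cell make-up of whole muscle. Plin1 and Cidec had r = 0.96 (Spearman rho 0.98, and 0.95 within groups), and both were tied to Cidea (r = 0.83 and 0.86) and Plin4 (0.72 and 0.75). Plin4 and Plin5, the neighbours on chromosome 17, had r = 0.82 (0.65 within groups). Plin2 went with neither set, at r = 0.15 with Plin1 and -0.28 with Plin5, and had its highest value among members with Hilpda (r = 0.69, rho 0.46). Hilpda ran against Plin4 (r = -0.74). Without MRL PE replicate 2 the values of these pairs were 0.97 for Plin1 with Cidec, 0.83 and 0.86 with Cidea, 0.76 and 0.77 with Plin4, 0.81 for Plin4 with Plin5, 0.20 and -0.21 for Plin2 with Plin1 and Plin5, 0.56 for Plin2 with Hilpda and -0.72 for Hilpda with Plin4 (23 libraries).

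For each member the 5 genes with the highest Pearson correlation were listed. For Cidec they were Adipoq (r = 0.986), Acvr1c, Lipe (0.984), Klb and Lgals12, of which Adipoq encodes the adipocyte hormone adiponectin and Lipe the hormone-sensitive lipase. For Plin1 they were Tmem45b (0.965), Sik2, Acvr1c, Tusc5 and Apcdd1. For Cidea they were Ntrk3 (0.982), Otop1, Ucp1 (0.959), Slc24a3 and Kcnk3. For Plin5 they were Hsdl2 (0.941), Cpt2 (0.935), Acadm (0.929), Ech1 and Decr1, where Cpt2, Acadm, Ech1 and Decr1 encode mitochondrial enzymes of fatty acid oxidation. Plin4 was closest to Amy1 (0.923), Pdzd2, Ghr, Enpp5 and Gpt.

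The remaining members had other companions. Plin2 was closest to Myl6 (0.957), Rab5c, Cyp4v3, Slc48a1 and Atp6v1h (0.945), the last a subunit of the proton pump that acidifies lysosomes. Hilpda was closest to Cdca5 (0.936), Ero1lb, Nuak2, Kcnab2 and Plek, but Spearman rho was only 0.621 to 0.846. Plin3 was closest to Uhrf1bp1l (0.913), Dtnbp1, Acox3, Itpkb and Gabarapl1.

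Against the summed marker genes, Plin2 had its highest correlation with the lipid-associated macrophage list (r = 0.84, rho 0.64, and 0.73 within groups), and so had Hilpda (0.88, rho 0.46). Plin4 was closest to the white adipocyte list (0.84, rho 0.81), and Plin5 to the brown adipocyte list (0.86, rho 0.87). Without MRL PE replicate 2 these were 0.78, 0.83, 0.83 and 0.85. Hilpda then had its highest correlation with the neutrophil list (r = 0.85, rho 0.52), above the lipid-associated macrophage list (rho 0.38). By rho over all 24 libraries the neutrophil list also came first for Hilpda (0.57). With Car3 left out of the white adipocyte list, its correlation was 0.78 with Plin4, 0.93 with Plin1 and 0.98 with Cidec. Cox8b carried much of the brown adipocyte sum, at 166 to 196 CPM of 247 to 267 CPM in uninjured MRL muscle. Ucp1 was at most 1.1 CPM in B6 saline, where that sum was 133 to 208 CPM. The correlation of Plin5 with this list was not computed without Cox8b. Plin5 lay nearly as close to the endothelium list (0.83, rho 0.81). With the muscle fibre list, r was 0.48 for Plin5, 0.57 for Plin4, -0.75 for Plin2 and -0.77 for Hilpda. High Plin2 was also seen beside low macrophage sums. Uninjured B6 replicate 2 had 181 CPM of Plin2 with 899 CPM of the lipid-associated macrophage genes and 164 CPM of Plin1. In MRL PE, replicates 1 and 3 had 179 and 171 CPM of Plin2 with 1130 and 1110 CPM of those genes and with 221 and 132 CPM of Plin1, the highest and the third-highest level of the study.

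**Figure D4:**
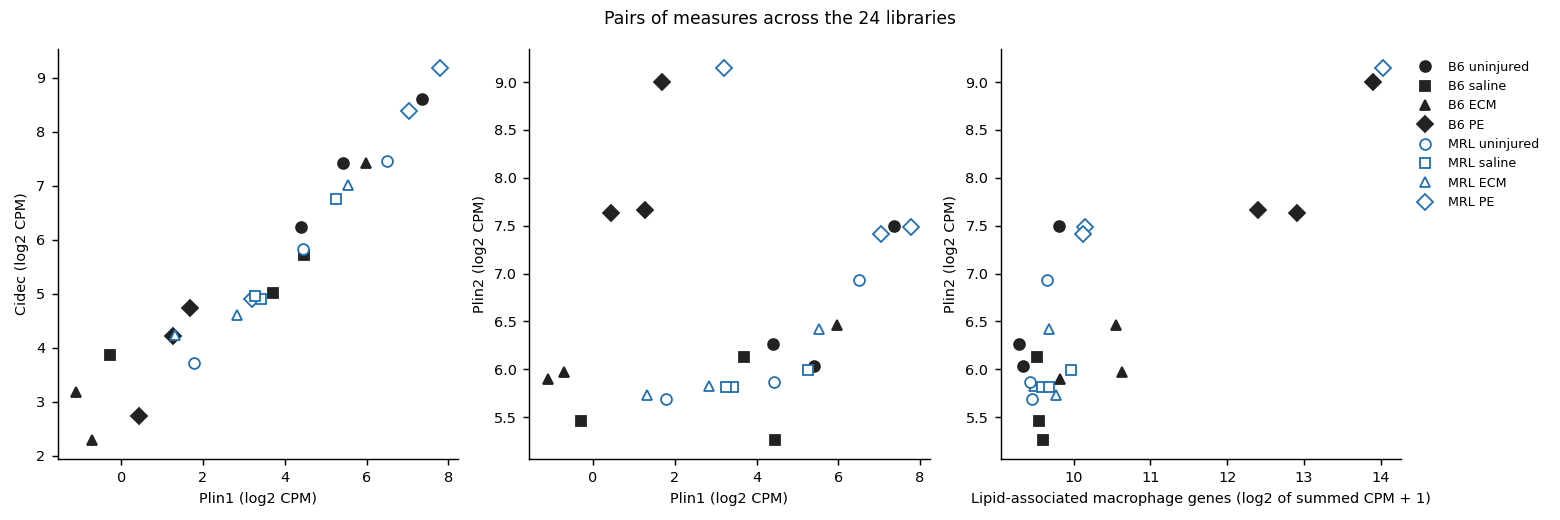
Each point is 1 of the 24 libraries, filled black for B6 and open blue for MRL, with the symbol giving the treatment. Left, Cidec against Plin1 (both log2 CPM, r = 0.96); middle, Plin2 against Plin1 (log2 CPM, r = 0.15), where 3 B6 PE libraries and 1 MRL PE library lie above the rest at low Plin1 and 2 MRL PE libraries lie at high Plin1; right, Plin2 against the log2 of the summed CPM of 8 lipid-associated macrophage genes (r = 0.84).

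The wider pathway was read in B6 PE against uninjured muscle, where 24.8% of all genes were called. Of 14 genes of fatty acid uptake and oxidation, 12 were called lower, with a median log2 fold change of -2.03. Examples were Pdk4, which restrains glucose oxidation (-3.17, adjusted p = 0.00604), the thiolase Acaa2 (-2.49), the fatty acid carrier Fabp3 (-2.41) and the dehydrogenase Acadl (-2.16). Of 9 triacylglycerol synthesis and assembly genes found under their symbols (Gpat3, Gpat4 and Ldaf1 were not), 3 were called lower, namely Dgat2 (-3.44), which makes triacylglycerol, Acsl1 (-2.08) and Fitm2 (-1.37), and the list median was -1.51.

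Of 8 genes of lipolysis, Lipa, the acid lipase of lysosomes, rose by 3.97 on the log2 scale (adjusted p = 0.00499). Pnpla2, the first lipase of the droplet surface (-2.22, adjusted p = 0.0201), and its inhibitor G0s2 (-1.97, adjusted p = 0.0208) fell, and 5 were not called, with a list median of -2.10. Among 8 other droplet-associated proteins Hsd17b11 rose (1.79, adjusted p = 0.0122) and 7 were not called. Cideb, Hsd17b13, Ldah and Cavin1 were not found in the table under these symbols.

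Of 9 transcription factors, 3 were called lower, the lipid regulators Ppara (-3.57, adjusted p = 0.00828) and Ppargc1a (-1.57) and the hypoxia factor Epas1 (-1.39). Of 9 hypoxia-induced genes, Slc2a1 was called higher (1.69) and Vegfa (-1.53), Bnip3 (-1.40) and Pdk1 (-1.10) lower, with a median of -0.34. These genes did not move as one group, and Hilpda, itself known as hypoxia-induced, stood at 1.29 without a call.

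Fewer pathway genes passed elsewhere. In B6 PE against saline the calls were Lipa (4.21), Cd36, a fatty acid transporter and scavenger receptor (2.16), Hsd17b11 (1.97), Slc2a1 (1.77) and Vegfa (-1.46), and of the synthesis genes and transcription factors none was called by limma (2 of 9 and 3 of 9 had an unadjusted p below 0.05). Of all 14159 genes, 3563 had an unadjusted p below 0.05 there. In MRL PE against uninjured muscle Hsd17b11 (1.55) and Faf2 (0.68) were called higher and Fitm1 lower (-1.27). They were 0.78 (adjusted p = 0.23), 0.55 (adjusted p = 0.183) and -0.70 (adjusted p = 0.241) without MRL PE replicate 2, and none of the 3 was called. Between the strains under PE 1 gene of the pathway lists was called, Abhd5, the co-activator of the Pnpla2 lipase, which was 0.95 higher in MRL (adjusted p = 0.0288). The medians of the lipolysis and white adipocyte lists in that comparison were 2.02 and 2.56, beside -0.02 for all genes. With replicate 2 of MRL PE left out Abhd5 was 1.19 higher (adjusted p = 0.00124), 7 of 8 lipolysis genes were called higher and 1 lower, and the medians were 2.80 and 3.64.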

How the data were processed

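Polyadenylated RNA from 24 whole quadriceps was sequenced as paired-end reads. Per the paper's methods, the authors pseudoaligned reads with kallisto to the Ensembl GRCm39 cDNA set, summed transcripts to genes with the Ensembl v79 annotation, kept genes above 1 CPM in at least 3 libraries, and deposited log2 CPM values after TMM normalization in edgeR. The commands set no strand option, and the aligner version is not given in the sources used here. The study's supplement states read numbers per library, which were not used here. The deposited table holds no counts, so the counts behind each value are unknown and no count model was used. Of 14160 rows, 1 had no symbol and was left out. CPM was recovered by subtracting the value of a count of 0 (log2 CPM of -3.65).

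All comparisons were fitted in limma 3.58.1 (R 4.3.3; trended prior variance) over the 8 groups, 16 comparisons of 2 groups and 3 interactions, with Benjamini-Hochberg adjustment within each. The fit was tested on simulated data. The lists and the members were chosen with earlier results of these data known. Genes of the lists were named where called, up to 4 per list by size of change, and the 5 genes of highest correlation were named for each member. Whether replicate numbers pair the libraries was checked by correlating residuals of same-numbered libraries across genes. Every pair exceeded 0.1 only between the strains under PE (0.105, 0.532 and 0.439), so the blocked values are given beside that comparison. The study's methods call the 24 samples independent without stating that each came from its own animal, so p-values measure the spread between these samples. Promoter windows and positions were read from GRCm39, the build the authors name, with GENCODE vM39. Alternatives were another pseudocount, a filter on low genes, 2 other scalings, library weights, the compared groups alone, a constant prior variance, the replicate block, and leaving out each library. List results and correlations without MRL PE replicate 2, white adipocyte sums without Car3, and the check of the strain labels were added after seeing the data. matplotlib 3.10.9 drew the plots.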

Additional observations from a re-analysis of the deposited data

How the results depend on the processing

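In B6 PE against uninjured, the 5 members called became 7 with library weights (Plin1 and Hilpda added), where 54.8% of all genes were called. They became 6 with the compared groups alone (Plin1 and Hilpda added, Plin2 lost at adjusted p = 0.0583). With log2(CPM + 1) and with quantile normalization they became 6 (Plin1 added in both). With equal totals they stayed 5 (Hilpda added, Cidec lost at adjusted p = 0.0662). A constant prior variance and the replicate block each left 4 (Cidec lost in both), the block with 22.1% of all genes called. Between strains under PE, Plin5 was called in 3 of 8 alternatives, Cidea in 4 and Plin4 in 5. The number of members called also moved by over 1.5 times in the following comparisons. For library weights and the replicate block, the percent of all genes called is given in brackets. With library weights, 4 were called in B6 ECM against uninjured (17.5%) and 2 in B6 saline against uninjured (7.6%). In B6 PE 4 were called against ECM (26.3%) and 6 against saline (24.7%). In MRL PE 4 were called against ECM (14.6%) and 5 against saline (19.9%). Between strains 6 were called under PE (45.7%) and 2 after saline (16.3%), and 6 in the interaction of strain with PE (13.5%). These weights gave MRL PE replicate 2 a weight of 0.0939 and called up to 7755 genes in a comparison. With the replicate block, 1 was called in B6 PE against ECM (Plin2, adjusted p = 0.0389, 0.219% of all genes). In B6 PE against saline 2 were called (Plin3 added, adjusted p = 0.0473, 5.41%). In MRL PE 1 was called against ECM (Plin2, adjusted p = 0.0446, 0.784%) and 0 against uninjured (Plin2, adjusted p = 0.0504, 0.0636%). Between strains under PE 0 were called (2.89%). The block also cost the call of Cidec in B6 PE against uninjured (adjusted p = 0.0643) and changed no other call of a member. With the compared groups alone, 1 was called in B6 ECM against uninjured, 2 in B6 PE against saline, 0 in MRL PE against uninjured and 0 between strains under PE. Of all genes, this setting called 0 in MRL PE against uninjured and 113 between strains under PE. The share of all genes is not given for the other counts by alternative setting. Scaling to equal totals called 2 in B6 PE against saline and 1 in MRL PE against ECM, and moved the median of all genes in B6 PE against uninjured from 0.02 to 0.43. The filter on low genes called 1 in MRL PE against ECM and 0 between strains under PE, log2(CPM + 1) called 1 between strains under PE, and quantile normalization and a constant prior variance each called 0 in MRL PE against uninjured.

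With 1 library left out, the count ran from 0 to 1 in B6 PE against saline, from 2 to 4 in B6 PE against uninjured, from 0 to 1 in MRL PE against ECM, saline and uninjured, from 0 to 6 between strains under PE, from 0 to 1 between strains after saline and from 0 to 2 in the interaction of strain with PE. The number of all genes called ran from 2 to 1281 in B6 PE against saline and from 533 to 3435 against uninjured. In MRL PE it ran from 0 to 1740 against ECM, from 0 to 775 against saline and from 0 to 3427 against uninjured. Between strains it ran from 234 to 3490 under PE and from 230 to 613 after saline, and in the interaction from 0 to 625. Over all comparisons 45 of 152 member values changed sign when 1 library was left out, and 0 of the 9 called values did. Cidea in B6 ECM against saline ran from -0.71 to 2.64 and Plin1 in B6 PE against ECM from -1.51 to 2.04. Plin3 in B6 PE against uninjured ran from -0.03 to 0.48, Plin3 between strains under PE from -0.04 to 0.57, Plin2 there from -0.65 to 0.37, and the Plin2 interaction with PE from -0.90 to 0.12. In MRL PE against uninjured, Plin4 ran from -0.40 to 1.23 and Plin5 from -0.60 to 0.93, and Plin5 was 0.33 with equal totals and 0.85 with library weights. Of the refitted values of named genes, 799 kept their direction and side of the threshold, 151 lost a call, 49 gained one and 13 changed sign, and the causes were not tested.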

Other observations

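Markers of further cell types also moved in B6 PE against uninjured muscle, where 14.7% of all genes were called higher and 10.0% lower. All 4 neutrophil genes in the table were called higher (Ly6g, Mpo and Retnlg were not in it), with sums of 16.3 to 127 CPM against 1.0 to 3.08 CPM. Of 5 fibroblast genes 3 were called higher, and all 4 endothelial genes were called lower, at a list median of -0.92 (log2). Krt18 was called higher among the 3 epithelial genes measured. In MRL PE the neutrophil sum was 23.7 CPM in replicate 2 and 2.92 and 2.64 CPM in replicates 1 and 3. Their part in the levels of the droplet genes was not tested.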
